A study of Mus musculus with 4 samples.

Results

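The genes described here are 10 transcription factors that act in effector and exhausted CD8 T cells: Tox, Tox2, Nr4a1, Nr4a2, Nr4a3, Eomes, Tbx21, Batf, Irf4 and Zeb2. They were taken by symbol from the deposited count table, and 10 of 10 are among its 14934 genes. The libraries came from wild-type mouse CD8 T cells that had infiltrated hepatocellular carcinoma and were separated by flow cytometry into a JAML-positive and a JAML-negative fraction. Each fraction has 2 libraries, A and B. JAML is an adhesion and costimulatory receptor of the immunoglobulin superfamily. The JAML-negative libraries carry CON in their titles and serve as the comparison group. No treatment is recorded for either fraction. Neither strain, age, tumour model nor the relation of A to B is recorded, so a p-value here weighs the groups only against differences between single libraries, and these may be technical.

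As background, T cell receptor signals raise calcium, and the phosphatase calcineurin then releases NFAT proteins into the nucleus. NFAT with AP-1 partners drives effector genes, while NFAT signalling that persists without enough AP-1 induces the nuclear receptors of the NR4A family and the high mobility group proteins TOX and TOX2, which support the exhausted state in tumours. BATF is an AP-1 protein that binds DNA together with JUN proteins and IRF4, and IRF4 level follows the strength of receptor signalling. The T-box factors T-bet (Tbx21) and eomesodermin (Eomes) drive killing and cytokine genes, and ZEB2 acts with T-bet in terminal effector cells.

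Library totals lay between 27530187 and 30569728 counts. Jaml transcript was at 124 ± 9.89 CPM (the count scaled to library size with TMM factors) in the JAML-negative fraction and at 142 ± 6.53 CPM in the JAML-positive one (mean ± SD, n = 2; edgeR adjusted p = 0.881), so the group names rest on the labels. CD8 and T cell receptor genes were abundant in every library, with a summed level of 4600 to 5210 CPM over the 8 of 11 listed identity genes found in the table. JAML-positive A stood apart, with 11.6% of its counts in ribosomal protein genes against 7.15% to 7.97% in the other libraries. Log2 fold changes of the factors are therefore also given without single libraries.

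In the JAML-positive fraction the mean levels of the 3 NR4A genes were lower, by log2 fold changes of -0.55 to -0.58, the mean level of Batf was higher, by 1.31, and those of T-bet, eomesodermin and Irf4 differed by 0.24 or less, none past the edgeR threshold. All 10 factors passed the filter on low counts and were among the 11563 genes tested. With edgeR's quasi-likelihood test and Benjamini-Hochberg adjustment, 0 of 10 passed an adjusted p of 0.05, as did 0% of all genes tested (smallest adjusted p 0.227). At an unadjusted p under 0.05 there were 2 of 10, Nr4a1 lower and Batf higher, against 7.65% of all genes. That count was 1 (Nr4a1) with limma-voom or with libraries scaled to CD3 and CD8 genes. It was 3 (Nr4a3 being added) with DESeq2 or with no filter on low counts. Both the count and the factors in it changed with the library left out. The log2 fold change then ranged from -0.74 to -0.45 for Nr4a1 and from 0.76 to 1.74 for Batf. DESeq2 called 1 of 10, Nr4a1, against 6.77% of the genes for which it gave an adjusted p, and limma-voom called 0. Lower values in JAML-positive cells were found for 6 factors and higher values for 4, while 49.3% of all genes had lower values. The median log2 fold change was -0.25 over the 10 factors and 0.01 over all genes. Both JAML-positive libraries lay on 1 side of both JAML-negative libraries for 7 factors (3 lower, 4 higher), against 38.5% of all genes. JAML-positive A was the lowest of the 4 libraries for 5 factors (Tox, Nr4a1, Nr4a2, Nr4a3 and Zeb2), against 25.2% of genes. In a bulk library, fewer cells with a transcript and less transcript per cell cannot be told apart.

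**Figure D1:**
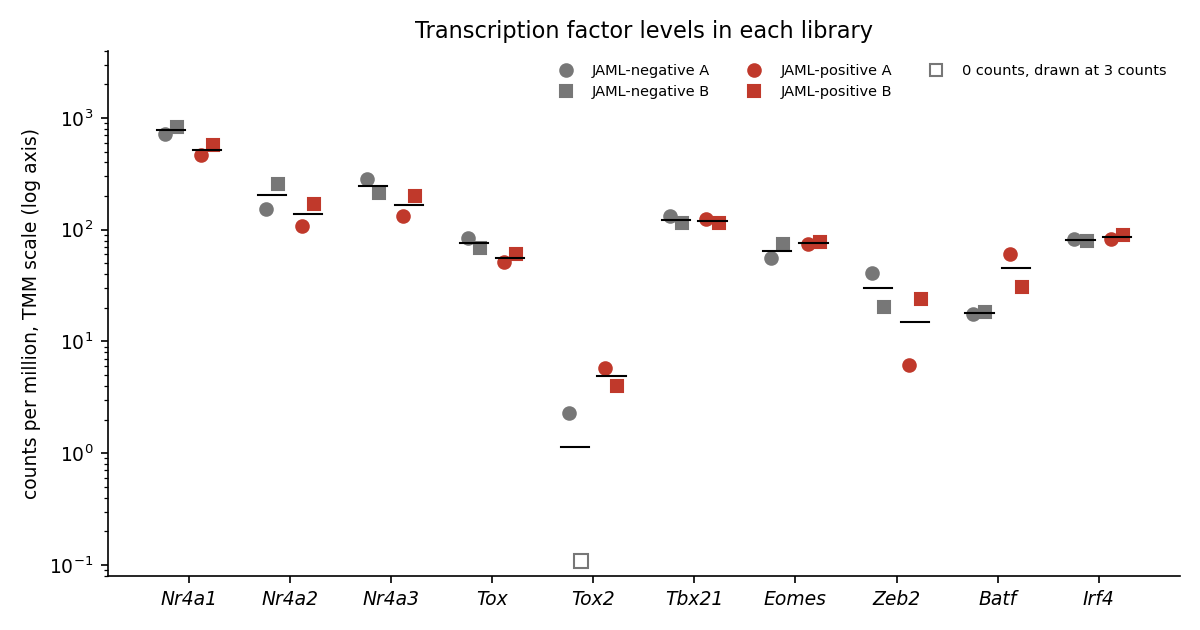
Level of each factor in each library, in CPM scaled with trimmed mean of M values (TMM) factors on a log axis; circles are libraries A, squares libraries B, black lines group means, and an open square marks 0 counts drawn at the level of 3 counts. The means of the NR4A genes sit lower in the JAML-positive group (red) than in the JAML-negative group (grey), with overlapping points for Nr4a2. Batf sits higher, and the Zeb2 points are spread within both groups.

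NR4A proteins are orphan nuclear receptors, and their genes are induced rapidly by T cell receptor stimulation. Nr4a1 (NUR77; Entrez 15370, chromosome 15, 101253902 to 101274795, GRCm38) was the most abundant factor, at 719 and 835 CPM in JAML-negative A and B against 468 and 569 CPM in JAML-positive A and B. Both JAML-positive libraries lay below both JAML-negative ones. The level was 1.50-fold lower (95% interval 1.09 to 2.05), a log2 fold change of -0.58 (SE 0.21, edgeR unadjusted p = 0.0158, adjusted p = 0.609). The edgeR adjusted p lay between 0.165 and 0.881 over the edgeR settings tried, while DESeq2 gave 0.0162. Nr4a3 (NOR1; chromosome 4, 48045078 to 48086447) was at 282 and 213 CPM in JAML-negative A and B against 132 and 199.6 CPM in JAML-positive A and B. Its groups did not overlap, though JAML-negative B and JAML-positive B were close (log2 fold change -0.57, SE 0.27, edgeR adjusted p = 0.609). Nr4a2 (NURR1; chromosome 2, 57106830 to 57124003) was at 154 and 257 CPM in JAML-negative A and B against 107 and 172 CPM in JAML-positive A and B. Here the groups overlapped, since JAML-positive B lay above JAML-negative A (log2 fold change -0.55, SE 0.31, edgeR adjusted p = 0.640).

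Summed over the family, NR4A transcripts made up 1150 and 1300 CPM in JAML-negative A and B against 707 and 940 CPM in JAML-positive A and B. Both JAML-positive sums lay below both JAML-negative ones, while the share held by Nr4a1 overlapped between the groups. Nr4a1 held 62.2% and 64.0% of the NR4A total in JAML-negative A and B against 66.2% and 60.5% in JAML-positive A and B. On the log2 scale, the ratio of Nr4a1 to Nr4a2 differed between groups by -0.033 and that of Nr4a1 to Nr4a3 by 0.01, each far less than the spread of that ratio within a group (SD 0.224 to 0.438). Without JAML-positive A the log2 fold changes of Nr4a1, Nr4a2 and Nr4a3 were -0.45, -0.25 and -0.31. Without JAML-positive B they were -0.74, -0.94 and -0.92. Without JAML-negative A they were -0.69, -0.88 and -0.36, and without JAML-negative B -0.47, -0.14 and -0.76. The sizes for Nr4a2 and Nr4a3, and how alike they were, thus depended on the libraries used, and the part of the high ribosomal protein share of JAML-positive A in it was not tested.

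The bases before the starts of Nr4a1 and Nr4a2 are shown because a short element recurs there in the NR4A family. Each window is the 250 bases before the start in RefSeq (GRCm38.p6), written 5′ to 3′ on the strand of the gene, and capitals mark the core of the cyclic AMP response element bound by CREB and ATF proteins (TGACG, or CGTCA where the core lies on the other strand). The windows are at chr15:101266596-101266845 (+), which lies within the annotated span of Nr4a1, and chr2:57124004-57124253 (-), and neither overlaps a GENCODE M21 exon of its gene.
Nr4a1: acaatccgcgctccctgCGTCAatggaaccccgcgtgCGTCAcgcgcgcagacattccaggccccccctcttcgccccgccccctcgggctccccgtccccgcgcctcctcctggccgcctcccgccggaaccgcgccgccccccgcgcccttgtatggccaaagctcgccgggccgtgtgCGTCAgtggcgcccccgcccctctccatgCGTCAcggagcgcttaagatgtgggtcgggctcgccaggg
Nr4a2: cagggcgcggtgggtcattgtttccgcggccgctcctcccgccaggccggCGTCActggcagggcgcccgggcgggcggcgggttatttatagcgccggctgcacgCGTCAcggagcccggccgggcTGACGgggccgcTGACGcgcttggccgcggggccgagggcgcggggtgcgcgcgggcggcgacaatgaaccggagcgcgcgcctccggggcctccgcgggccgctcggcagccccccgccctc

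Both windows hold 4 copies of the core, and so does that of Nr4a3 at chr4:48045055-48045304 (+), which is not printed because 152 of its bases are exonic in GENCODE M21. In Nr4a1 the copies begin 233, 213, 69 and 40 bases before the start, in Nr4a2 200, 144, 123 and 111 bases before it, and in Nr4a3 231, 213, 205 and 147 bases before it. Of 32851 windows of this length before RefSeq starts, 17.8% hold the core on either strand and 0.137% (45 windows) hold 4 or more copies. The NR4A windows are rich in G and C (74.4%, 80.0% and 63.6%), and among the 9178 windows with at least 60% of these bases 0.37% hold 4 or more. The cut at 4 copies equals the number in the NR4A windows, which are themselves counted in these shares. The shares are therefore a description and not a test. The full palindrome (TGACGTCA), which 1.55% of windows hold, is in none of the 3. A match of letters is a description and not a measured binding site.

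Batf, whose values were higher, has 1 core, 98 bases before its start (window chr12:85686470-85686719, +, of which 51 bases are exonic in GENCODE M21). Among the factors with several listed starts, 1 of 5 windows of Tox2 and 2 of 4 of Zeb2 hold 1 core. Those 2 windows of Zeb2 overlap and hold the same site. The Batf window also holds 2 NFAT cores (GGAAA, on either strand in 55.6% of windows), the Nr4a2 and Tbx21 windows hold 1 each, and so do 2 windows of Tox2, while 3 windows of Zeb2 hold 2 or 3. The 2 windows of Tox2 overlap and share 1 NFAT site, and the 2 overlapping windows of Zeb2 share both of theirs. Of the 10 factors 9 matched a RefSeq start in the table of promoters. The windows of Irf4 and Eomes hold none of the motifs searched on both strands, of which the palindrome TGACGTCA contains the core TGACG. The E2 box of ZEB proteins (CACCTG, in 17.2% of windows) lies in the Tbx21 window and before 1 of 5 starts of Tox2. The AP-1 element (TGANTCA, in 6.75% of windows) was found before 1 of 4 starts of Zeb2, in 2 copies. The NR4A monomer element (AAAGGTCA, in 1.34%) and the T-box site (AGGTGTGA, in 1.12%) were found before none of them.

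**Figure D2:**
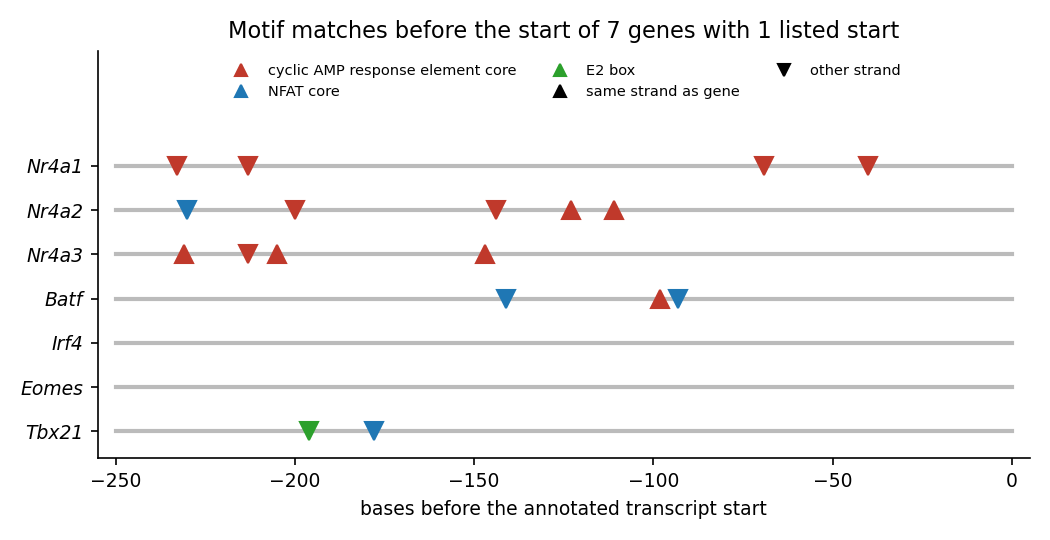
Motif matches in the 250 bases before the transcript start of the 7 factors with a single listed start; the horizontal axis gives bases before the start and the direction of a triangle gives the strand. The 3 NR4A genes carry 4 cyclic AMP response element cores each, Batf carries 1, and the other 3 genes carry none.

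TOX and TOX2 are related high mobility group proteins that maintain exhausted CD8 T cells. Tox (Entrez 252838, chromosome 4, 6686353 to 6991557) was at 84.6 and 68.2 CPM in JAML-negative A and B against 51.2 and 60.4 CPM in JAML-positive A and B. Both JAML-positive libraries were lower, by a log2 fold change of -0.45 (SE 0.36, edgeR adjusted p = 0.774), with a 95% interval from 2.33-fold lower to 1.25-fold higher. Without JAML-positive A the log2 fold change of Tox was -0.34, and without JAML-negative A it was -0.29. Tox2 (chromosome 2, 163203058 to 163324172) was scarce, with 64 and 0 counts in JAML-negative A and B against 153 and 126 counts in JAML-positive A and B. Its fitted log2 fold change of 2.07 (SE 1.65, edgeR adjusted p = 0.774) rests on that 0, being 1.10 without JAML-negative B and 10.1 without JAML-negative A. A library at 0 beside one of at least 50 counts in the same group occurred for 11.1% of the genes tested. The relative Tox4, which is broadly expressed, was at 124 ± 14.2 and 129 ± 23.0 CPM in JAML-negative and JAML-positive cells (log2 fold change 0.07, SE 0.28). The value of Tox4 was -0.03 when libraries were scaled to CD3 and CD8 genes, -0.14 without JAML-positive B and -0.04 without JAML-negative B.

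The T-box factors differed little between the groups. Tbx21 (T-bet; chromosome 11, 97098007 to 97115331) was at 132 and 115 CPM in JAML-negative A and B against 124 and 115 CPM in JAML-positive A and B. The groups overlapped, with a log2 fold change of -0.04 (SE 0.27, edgeR adjusted p = 0.982), whose sign changed under some settings. The 95% interval for T-bet ran from 1.56-fold lower to 1.47-fold higher. Eomes (chromosome 9, 118478186 to 118486132) was at 55.5 and 74.6 CPM in JAML-negative A and B against 74.7 and 78.3 CPM in JAML-positive A and B. The groups of Eomes just failed to overlap, since JAML-negative A alone was low and the other 3 libraries were close together (log2 fold change 0.24, SE 0.35, edgeR adjusted p = 0.893). Without JAML-negative A the value for Eomes was 0.03. Counted per length, T-bet transcript exceeded Eomes transcript 3.39-fold and 2.20-fold in JAML-negative A and B against 2.38-fold and 2.11-fold in JAML-positive A and B. These ratios overlapped between groups, and an exact permutation test of 2 against 2 libraries cannot give a p below 0.33.

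Zeb2, a zinc finger repressor of terminal effector cells, varied most between libraries of 1 group among the factors above 10 CPM on average. Zeb2 (Entrez 24136, chromosome 2, 44983512 to 45117442) was at 40.6 and 20.2 CPM in JAML-negative A and B against 6.13 and 23.9 CPM in JAML-positive A and B. The groups overlapped, JAML-positive A being the low library. This gave a log2 fold change of -0.96 with SE 0.69 and an edgeR adjusted p of 0.740. It was -0.35 without JAML-positive A, -2.32 without JAML-positive B, -0.38 without JAML-negative A and -1.38 without JAML-negative B. The larger gap between libraries of a group was 1.95 on the log2 scale for Zeb2, and 14.2% of the 3758 genes within 2-fold of its level had a larger one. Its homologue Zeb1, a repressor linked to memory cells, was steadier, at 119 ± 0.676 CPM in the JAML-negative and 94.4 ± 2.05 CPM in the JAML-positive fraction (log2 fold change -0.33, SE 0.28, edgeR adjusted p = 0.796). Per length, Zeb2 stood at 0.217 and 0.108 of the Zeb1 level in JAML-negative A and B against 0.0419 and 0.158 in JAML-positive A and B, again without separating the groups.

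BATF and IRF4 act together at composite elements, and of their transcripts Batf had the larger difference between groups; whether the 2 differences differ was not tested. Batf (Entrez 53314, chromosome 12, 85686720 to 85709087) was at 17.6 and 18.5 CPM in JAML-negative A and B against 60.4 and 30.5 CPM in JAML-positive A and B. Both JAML-positive libraries were higher, but they differed from each other by 0.98 on the log2 scale. The fold was 2.48 (95% interval 1.06 to 5.78), a log2 fold change of 1.31 (SE 0.56, edgeR unadjusted p = 0.0375, adjusted p = 0.609). The adjusted p of Batf was 0.575 to 0.881 over the edgeR settings tried, 0.0571 with DESeq2 and 0.761 with limma-voom. Without JAML-positive A the log2 fold change of Batf was 0.76, and without JAML-positive B it was 1.74. Summed markers of plasmacytoid dendritic cells were higher in the same libraries (380 and 465 CPM in JAML-positive A and B against 224 and 226 CPM), as were those of CD4 and regulatory T cells (726 and 825 CPM against 584 and 539 CPM). The latter sum includes Ctla4, read below also as an exhaustion gene, at 357 and 390 CPM against 289 and 218 CPM. The sum also holds Il2ra, an interleukin receptor gene, at 44.1 ± 22.5 and 95.7 ± 8.8 CPM in JAML-negative and JAML-positive cells. Which cells these Ctla4 and Il2ra transcripts came from was not tested. The sum therefore does not measure CD4 and regulatory T cell content alone. Of the 10 genes in that sum 8 had higher and 2 had lower values. The part of these other cells in the Batf value was not tested. Short transcripts tended to higher values in JAML-positive cells, with a median log2 fold change of 0.31 under 1000 nucleotides and -0.21 over 8000. Batf has the shortest transcript of the 10 factors (0.96 kb) and Zeb2 the longest (9.12 kb). With trends in length and GC content removed, Batf stood at 1.02 and Zeb2 at -0.75.

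Irf4 (Entrez 16364, chromosome 13, 30749233 to 30766981) was at 82.2 and 79.1 CPM in JAML-negative A and B against 83.2 and 89.1 CPM in JAML-positive A and B. It was the steadiest factor. The 2 JAML-positive libraries lay just above the others, by a log2 fold change of 0.10 (SE 0.31, edgeR adjusted p = 0.960), which was -0.01 when libraries were scaled to CD3 and CD8 genes. The larger gap between libraries of a group was 0.10 for Irf4, and 97.8% of the 3504 genes within 2-fold of its level had a larger one. The 95% interval for the group difference in Irf4 ran from 1.50-fold lower to 1.72-fold higher. Per length, Batf stood at 1.07 and 1.17 times the Irf4 level in JAML-negative A and B against 3.62 and 1.71 times in JAML-positive A and B. That ratio was higher in both JAML-positive libraries, by 1.16 on the log2 scale.

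**Figure D3:**
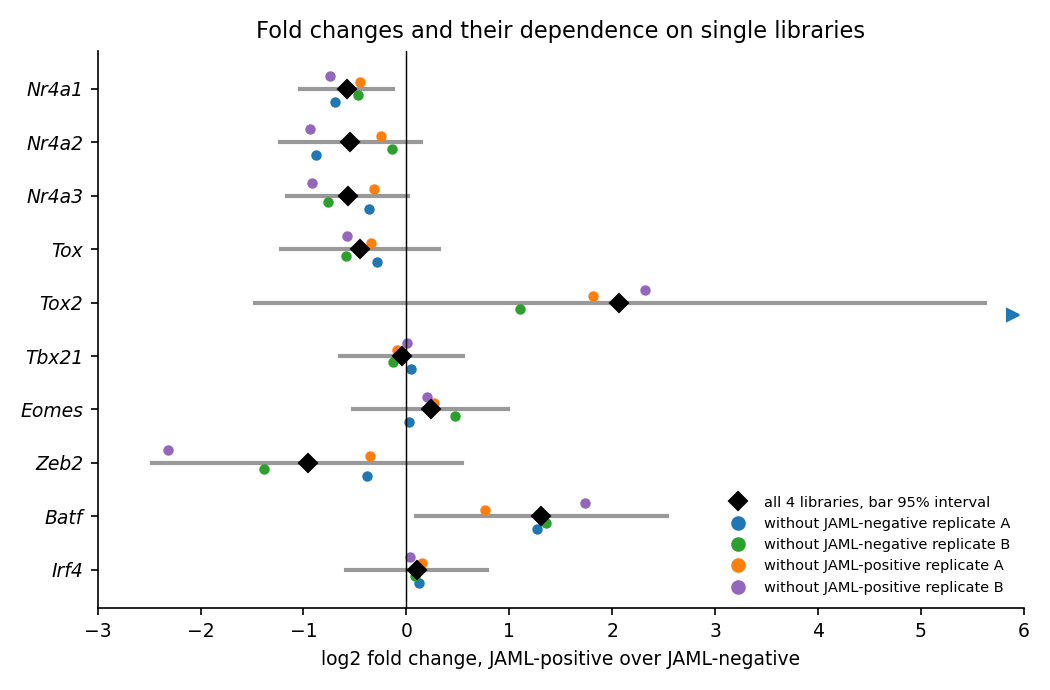
Log2 fold change of each factor (JAML-positive over JAML-negative, edgeR) with its 95% interval, and the value with each library left out in turn; a triangle at the right edge marks a value of 10.1 that lies beyond the axis. The intervals of Nr4a1 and Batf alone exclude 0, and the values of Tox2, Zeb2 and Batf spread most with the library left out.

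Compared per length, as RPKM (CPM on the TMM scale over the transcript length in kilobases), the order of the factors in JAML-negative cells began with Nr4a1 at 304 ± 32.2 (SD, n = 2). Nr4a2 (57.6 ± 20.3), Tbx21 (49.5 ± 4.75) and Nr4a3 (43.3 ± 8.50) followed and did not differ beyond their spread. Tox (19.3 ± 2.93), Batf (18.9 ± 0.689), Eomes (18.3 ± 3.80) and Irf4 (16.9 ± 0.452) came next. Tox and Eomes each had 1 library above and 1 below both Batf values, and Batf was above Irf4 in both JAML-negative libraries. Zeb2 (3.33 ± 1.58) and Tox2 (0.384 ± 0.544) came last. In JAML-positive cells Nr4a1 led at 203 ± 28.0, ahead of Tbx21 at 48.1 ± 2.56, Batf at 47.6 ± 22.1, Nr4a2 at 39.1 ± 12.8 and Nr4a3 at 29.0 ± 8.39. The place of Batf rests on JAML-positive A, at 63.2, since in JAML-positive B it was at 32.0, below Nr4a2 at 48.1, Tbx21 at 46.3 and Nr4a3 at 34.9. Eomes (21.5 ± 0.723), Irf4 (18.1 ± 0.876) and Tox (14.1 ± 1.63) followed, ahead of Tox2 (1.67 ± 0.422) and Zeb2 (1.64 ± 1.38), which overlapped.

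Among 8484 genes of at least 10 CPM, the genes with a profile over the 4 libraries closest to that of Nr4a1 were Pip4k2b, Supt6 and Ascc3 (root mean square distance of centred log2 CPM 0.0077, 0.0088 and 0.0214). Closest to Tox were Pus10, Zfp36 and Sipa1 (0.0172, 0.0179 and 0.0258), and closest to Irf4 were Rab22a, Ctsc and Arhgef2 (0.0111, 0.0169 and 0.0204). With 4 libraries many genes come this close, so this is a description only.

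Genes of the same pathways were read from lists, with 0 members past the edgeR threshold in each of the 6 lists that follow. Upstream, 10 of 19 tested calcineurin and NFAT genes had higher and 9 lower values (median log2 fold change 0.01). Nfatc1 (-0.21, SE 0.24) and Nfatc2 (-0.26, SE 0.34) had slightly lower values, and with each library left out in turn they ranged from -0.32 to -0.10 and from -0.42 to -0.07. Calm3, a calmodulin gene, was at 160 ± 29.5 and 264 ± 24.1 CPM (log2 fold change 0.72, SE 0.25) and Ppp3cb, a catalytic subunit of calcineurin, at 142 ± 49.8 and 215 ± 9.25 CPM (0.60, SE 0.28) in JAML-negative and JAML-positive cells. The value of Ppp3cb was 0.28 without JAML-negative A and 1.02 without JAML-negative B. Rcan1, a calcineurin regulator that is itself a target of NFAT and was picked after its values were seen, had 7 and 16 counts in JAML-negative A and B against 369 and 109 in JAML-positive A and B.

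The immediate early genes, which like the NR4A genes respond quickly to stimulation, had 15 lower and 4 higher values of 19 (median -0.29), and 4 reached an unadjusted p under 0.05, as did 7.65% of all genes tested. Egr1 had 6042 and 5700 counts in JAML-negative A and B against 3532 and 4230 counts in JAML-positive A and B, a log2 fold change of -0.65 (SE 0.24). Myc, a driver of growth, stood at -0.67 (SE 0.29), Fosb at -0.53 (SE 0.24) and Zfp36, an mRNA decay factor, at -0.48 (SE 0.21). Without JAML-positive A these were -0.42 for Myc and -0.35 for Fosb, and Zfp36 was at -0.32 without JAML-negative A. Both JAML-positive libraries lay below both others for 11 of the 19, against 2106 of the 11563 genes tested, and above for 0.

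Partners of BATF and IRF4 had 4 higher and 8 lower values of 12 tested (median -0.18). Irf8, a relative of IRF4 abundant in dendritic cells, was at 39.7 ± 12.5 and 90.4 ± 14.4 CPM in JAML-negative and JAML-positive cells (log2 fold change 1.19, SE 0.38, edgeR adjusted p = 0.609). Stat3 (-0.44, SE 0.23), Jun (-0.34, SE 0.21) and Bach2, a repressor that competes for AP-1 sites (-0.44, SE 0.32), had lower values. Stat3 was at -0.24 and Jun at -0.15 without JAML-positive A, and at -0.68 and -0.56 without JAML-positive B. Batf3, the relative of BATF needed by cross-presenting dendritic cells, had 1 and 0 counts in JAML-negative A and B against 116 and 1 in JAML-positive A and B. Its higher total thus came from a single library.

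Other effector and memory transcription factors had 23 lower and 8 higher values of 31 tested (median -0.25), and 4 reached an unadjusted p under 0.05, beside 7.65% of all genes. Tcf7, which sustains stem-like cells, was at 1080 ± 6.38 and 743 ± 54.2 CPM in JAML-negative and JAML-positive cells (log2 fold change -0.53, SE 0.19). Ikzf2 (Helios) was at 93.7 ± 15.1 and 50.2 ± 11.8 CPM (-0.89, SE 0.36). Ikzf3 (Aiolos) stood at -0.44 (SE 0.22) and Foxp1, which supports quiescence, at -0.49 (SE 0.25). Id2, which favours effector over memory fate, differed in the other direction, at 238 ± 42.9 and 356 ± 102 CPM (0.58, SE 0.26). Without JAML-positive A the values were -0.29 for Ikzf3, -0.30 for Foxp1 and 0.26 for Id2. The T-box gene Tbx6, picked after its values were seen, had 242 and 123 counts in JAML-negative A and B and 0 in both JAML-positive libraries, at least 62.4-fold lower against 3 counts per library.

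Effector genes linked to the T-box factors and ZEB2 had 10 higher and 8 lower values of 18 (median 0.08, against 0.01 over all genes). Prf1 (perforin) was at 90.6 ± 30.4 and 181 ± 11.3 CPM, Gzmb (granzyme B) at 1140 ± 9.98 and 1760 ± 312 CPM and Gzmk (granzyme K) at 90.9 ± 8.58 and 156 ± 52.6 CPM in JAML-negative and JAML-positive cells. The chemokine gene Ccl5 was lower, at 778 ± 172 and 473 ± 40.5 CPM, as was Il18rap, at 278 ± 28.5 and 212 ± 18.5 CPM. These genes were named for having the smallest p of their list. The edgeR adjusted p was 0.646 for Il18rap and 0.609 for each of the others. The log2 fold change of Gzmk went from 0.77 to 0.39 without JAML-positive A, and that of Ccl5 from -0.72 to -0.47 without JAML-negative B. S1pr5, an egress receptor of terminal effector cells picked after its values were seen, had 284 counts in JAML-negative A and 0 in each of the other 3 libraries.

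Exhaustion genes linked to TOX and NR4A had 9 higher and 8 lower values of 17 (median 0.08), and 5 reached an unadjusted p under 0.05, beside 7.65% of all genes. Havcr2 (TIM-3), an inhibitory receptor, had higher values where Tox and the NR4A genes had lower ones. It was at 62.5 ± 35.0 and 135 ± 7.50 CPM (log2 fold change 1.11, SE 0.37) in JAML-negative and JAML-positive cells. Tnfrsf9 (4-1BB) was at 58.1 ± 5.34 and 109 ± 15.8 CPM (0.90, SE 0.33), Ctla4 at 253 ± 50.9 and 373 ± 23.0 CPM (0.56, SE 0.23) and Rgs16, a brake on chemokine receptor signals, at 89.3 ± 24.6 and 146 ± 7.10 CPM (0.71, SE 0.30). Ptger4, a prostaglandin receptor, differed the other way, at 102 ± 1.25 and 57.3 ± 5.54 CPM (-0.84, SE 0.33). Without JAML-negative A and without JAML-negative B the values were 1.84 and 0.64 for Havcr2, 0.78 and 0.37 for Ctla4, and 1.02 and 0.46 for Rgs16.

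**Figure D4:**
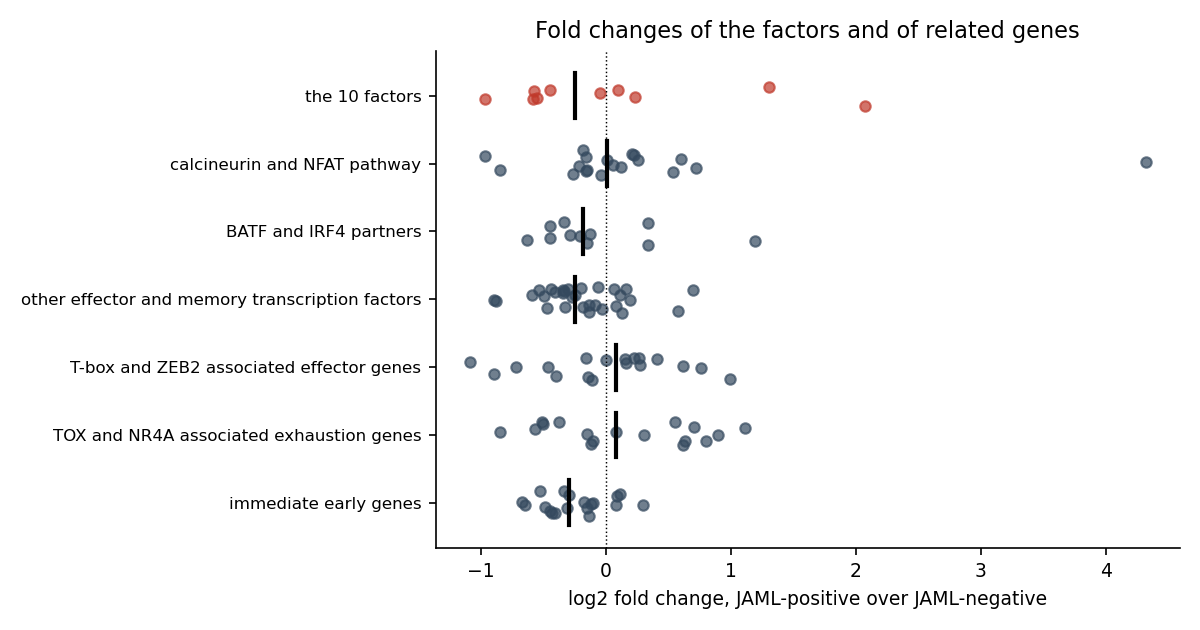
Log2 fold change (JAML-positive over JAML-negative, edgeR) of the 10 factors and of the genes tested in 6 related lists; each point is a gene with more than 3 counts in both groups and each black line is the median of all tested members. Immediate early genes and other transcription factors lie mostly below 0, and the other lists scatter around it.

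Several of the 10 factors are also expressed by other cells of the tumour, as Irf4 is by plasma cells and dendritic cells, Batf by helper and regulatory T cells, and Zeb2 by plasmacytoid dendritic cells and macrophages. Markers of plasmacytoid dendritic cells had higher values in JAML-positive cells for 9 of 9 tested genes, with a summed level of 224 and 226 CPM in JAML-negative A and B against 380 and 465 CPM in JAML-positive A and B, with Irf8 among them. Siglech had 161 and 13 counts in the former and 1491 and 1527 in the latter, and Ly6d was at 0 in both JAML-negative libraries. Dendritic cell and class II markers had higher values for 10 of 11 tested genes, with sums of 521 and 456 CPM against 852 and 601 CPM. B and plasma cell markers had higher values for 4 of the 5 tested genes, with sums over all 10 of 59.6 and 83.4 CPM against 189 and 139 CPM. Mzb1 and Sdc1 were at 0 in both JAML-negative libraries, Sdc1 also in JAML-positive B. Such counts of higher genes include markers that passed the filter on low counts through the JAML-positive libraries alone, which fixed their direction. Ly6d, Spib, Fscn1, Mzb1 and Ms4a1 did so, as did Ccr8, Klra4 and Klrb1b of the lists that follow. Each had at most 1 count per JAML-negative library, and Fscn1, Ms4a1 and Klrb1b were picked for these counts. Markers of CD4 and regulatory T cells had higher values for 8 of 10, with sums of 584 and 539 CPM against 726 and 825 CPM. Of these markers Ctla4 had higher values (log2 fold change 0.56) and Ikzf2 had lower ones (-0.89). Cd40lg, the ligand by which helper T cells activate B cells, had 1 and 70 counts in JAML-negative A and B against 356 and 1048 in JAML-positive A and B. Il2ra, the high-affinity interleukin receptor chain, had 797 and 1653 counts against 2367 and 3189, and Ccr8 had 0 in both JAML-negative libraries against 279 and 143. The source cells of the Ctla4 and Il2ra transcripts were not tested, so this list's sums do not measure CD4 and regulatory T cell content alone. Foxp3, the defining factor of regulatory T cells, picked after its values were seen, had 30 and 128 counts in JAML-negative A and B against 267 and 0 in JAML-positive A and B. Macrophage and monocyte markers (10 of 13 higher) had overlapping sums of 555 and 718 CPM against 940 and 559 CPM. Ly6c2 made up most of each sum, at 462 and 625 CPM against 707 and 373 CPM, and the sums overlap through it. Which cells its transcript came from was not tested, so the sums do not measure macrophage and monocyte content alone. Lyz2 and Cd68 of the same list were far lower, at 17.4 to 31.8 and 16.6 to 22.2 CPM, and overlapped between the groups. Mpeg1, a pore-forming protein of phagocytes on the same list, was at 7.50 and 13.9 CPM in JAML-negative A and B against 119 and 89.6 CPM in JAML-positive A and B (log2 fold change 3.28, SE 0.49, edgeR adjusted p = 0.227). NK cell markers were 5 higher and 5 lower, Eomes itself being on that list. Their sums were lower in JAML-positive A and B, at 287 and 242 CPM against 340 and 296 CPM in JAML-negative A and B. Klra4 went the other way, with 0 counts in both JAML-negative libraries against 418 and 333 in JAML-positive A and B. Hepatocyte markers were at 33.5 and 39.1 CPM in JAML-positive A and B, and at 66.0 and 32.5 CPM in JAML-negative A and B, with 3 of 10 genes tested. The part of these other cells in the values of Irf4 and Zeb2 was not tested.

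Exons of 3 factors overlap those of a listed gene on the opposite strand, and without strand information in the counts the reads cannot be told apart there. Tox shares 3.4% of its exonic bases with Gm11802, Eomes 2.8% with Gm33460, and Zeb2 3.3% with Zeb2os. These genes had few counts, from 0 to 226 in any library, against at least 1355 for Tox, 1568 for Eomes and 162 for Zeb2.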

How the data were processed

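The authors deposited 1 table of whole-number read counts per gene for the 4 libraries, with no further normalization recorded. Per the labels' protocols, total RNA went into a SMARTER mRNA-Seq kit, and the submitters' processing notes name GRCm38 (mm10). No aligner, counting program or strand setting is named there. The 10 factors and all lists were chosen with earlier results of these data known. Counts were tested with edgeR 4.0.16 (R 4.3.3): filterByExpr (minimum count 10), TMM factors, a robust quasi-likelihood fit of the 2 groups without covariate, and Benjamini-Hochberg adjustment over 11563 genes at 0.05. The SE is the absolute log2 fold change over the root of F; 95% intervals use it with a t quantile. Log2 CPM used a prior count of 2. DESeq2 1.42.0, limma-voom (limma 3.58.1), other scalings and filters and left-out libraries were alternatives, and the test was run on simulated data. That simulation gave all genes the same spread between libraries and used folds larger than those of most of the factors. It therefore does not tell how well the test finds differences of the size seen here. A total of 3 counts equals 0.0959 to 0.113 CPM. No molecular identifiers are recorded, and such floors cover counting error alone. Lengths are of the longest GENCODE M21 transcript (13795 genes); coordinates and promoters are from RefSeq. From each list up to 5 genes of at least 10 CPM in a group with the smallest p could be named, beside all factors, their relatives and markers at 0 in a group. A and B were not treated as pairs.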

Additional observations from a re-analysis of the deposited data

How the results depend on the processing

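Of 129 values of the 10 factors under 13 alternatives, 125 kept their direction and 4 turned. Irf4 was at -0.01 when libraries were scaled to CD3 and CD8 genes, a setting that moved the median of all genes from 0.011 to -0.096, as leaving out JAML-negative A or B moved it to 0.133 or 0.130. Tbx21 was at 0.06 with length and GC trends removed and between -0.13 and 0.05 with a library left out, which is where its other changes of sign arose. Among other named genes, Tox4 was at -0.03 with the CD3 and CD8 scaling and between -0.14 and 0.23 with a library left out. The number of genes called was 0 with edgeR, 2 with no filter on low counts, 835 with DESeq2 and 0 to 11 with a library left out (11 without JAML-positive B). Of the 10 factors DESeq2 called 1 (Nr4a1), and edgeR and limma-voom called 0 under each setting. With the replicate block edgeR called 0 genes and 0 factors, and 620 genes had an unadjusted p under 0.05, against 885 without it; deviations of same-lettered libraries from their group means had a correlation of 0.0176 across genes, and the relation of A to B is not recorded. With 1 library left out, the lone library of a group was assumed to vary like the other group. The filter of at least 5 CPM removed Tox2. The median SE of a log2 fold change was 0.56 over all genes.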
